A study of Mus musculus with 8 samples.

Results

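The genes described here are 34 members of the p53 and DNA damage response, taken by name: p53 itself, its regulators, and genes that p53 or DNA damage is known to induce. A member was found on the array by its gene symbol or by the current symbol of its transcript accession, and its brightest probe stood for it. All 34 were found and passed the filter on dim probes, among 22225 genes tested. The scanner software marked every member as well above background in both channels of both arrays of each comparison, and none as saturated. Aen carries its older name, Isg20l1, in the files.

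p53 (Trp53) is a transcription factor that is kept low by the ubiquitin ligase Mdm2 and its partner Mdm4. When DNA is damaged, kinases such as ATM, ATR and DNA-PK act on p53 and Mdm2, p53 accumulates, and it binds paired decamers near genes that stop the cell cycle, start apoptosis or aid repair. Several targets, Mdm2 and Ppm1d among them, feed back on p53. Most hepatocytes of the adult liver are at rest, and the p53 target Cdkn1a (p21) is known as a brake on their return to the cycle.

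The RNA came from livers of ICR scid mice and was hybridised to 8 two-colour Agilent arrays, 2 for each of 4 comparisons, with separate RNA pools on each array and the dyes reversed between the 2 arrays. All mice were 8 weeks old and carried scid, a mutation of Prkdc, the catalytic subunit of DNA-PK, which impairs the joining of DNA breaks and leaves mice without mature T and B cells. Untreated males were set against untreated females, 10 mice each by the sample labels. Mice given Adeno-Cux2, a virus labelled for the homeobox factor Cux2, were set against mice given the control virus Adeno-CMV: males at day 5 (12 and 13 mice), females at day 5 (8 and 7) and males at day 3 (11 and 11). A pool held 3 to 7 livers, so n is 2 arrays throughout and the errors cover the spread between pools, not between mice. Ratios are male over female or Adeno-Cux2 over Adeno-CMV on the log2 scale, and values after ± are standard errors of 1 limma model fitted to all 8 arrays. A gene was called higher or lower at a Benjamini-Hochberg adjusted p under 0.05 over all genes tested.

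The labels were checked first. Cux2 was higher in the pools labelled Adeno-Cux2 in males, by 0.60 ± 0.09 at day 5 and 0.49 ± 0.09 at day 3. In females it was lower in the pools labelled Adeno-Cux2, at -0.61 ± 0.09, against the label. Without virus, Cux2 was lower in males than in females, at -1.88 ± 0.09. Female ratios are given as labelled. In that direction they correlated with those of males at day 5 at r = 0.87 over the 34 members, which come from other pools, and neutrophil and macrophage markers were higher in the pools labelled Adeno-Cux2 in both sexes. Whether the female channels were exchanged was not tested. The exchanged values given further on only turn the sign of the same female ratios, so they are no test either. Xist, expressed from the inactive X of females, read 0.11 on replicate 1 of males at day 3 and -3.28 on replicate 2, so the pool labelled Adeno-CMV males on that array was high in Xist; untreated males read -5.83 against females. Without that array, 20 members were higher and 1 was lower in males at day 3, and 21 of the 27 calls were kept. The median spot signal of an array ranged between 343 and 442 (green) or 430 and 512 (red). Untreated mice and males of day 5 were hybridised on 1 slide, and males of day 3 were hybridised with the females on the other, so a difference between comparisons on different slides cannot be told apart from a difference between slides. In bulk liver, fewer cells of a type and less RNA per cell cannot be told apart.

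RefSeq promoters on GRCm38.p6, from 250 bases before to 50 after a start site, matched 26 of the 34 members, with 37 start sites. The p53 half-site decamer (3 purines, a C, a pair of A or T bases, a G and 3 pyrimidines, read on both strands) was in 13 of the 37 member promoters (35.1%) and in 8.36% of all 32851 promoters. The members were chosen as p53 genes, so this describes them and tests nothing. The 12 genes with it were Trp53, Mdm2, Ppm1d, Cdkn1a, Ccng1, Gtse1, Gadd45a, Bax, Ei24, Aen, Sesn1 and Polk. ATCAAT, read on both strands, was in 1 member promoter, that of Plk3 (2.7%), and in 7.54% of all promoters. ATCGAT was in 0 of the 37 and in 0.925% of all. Cdkn1a, Mdm2 and Ccng1 are shown because they are classical p53 targets whose windows hold the decamer, printed in capitals; they were picked after the search. The Cdkn1a stretch (chr17:29090859-29090978, plus strand) runs from -120 to -1 of the first of its 2 start sites and holds the decamer 2 times, and those of Mdm2 (chr10:117710889-117710988, minus strand) and Ccng1 (chr11:40755417-40755516, minus strand) run from -230 to -131.
Cdkn1a: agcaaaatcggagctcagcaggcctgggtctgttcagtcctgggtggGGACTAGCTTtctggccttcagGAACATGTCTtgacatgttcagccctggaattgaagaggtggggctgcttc
Mdm2: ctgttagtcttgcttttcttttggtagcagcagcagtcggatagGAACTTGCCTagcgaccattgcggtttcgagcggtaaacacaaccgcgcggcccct
Ccng1: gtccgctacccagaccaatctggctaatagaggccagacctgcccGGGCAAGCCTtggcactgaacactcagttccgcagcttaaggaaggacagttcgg

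The 3 Gadd45 paralogs are shown because their ratios differed from each other. Each stretch runs from -120 to -1. Capitals mark the decamer in Gadd45a (chr6:67037408-67037527, minus strand) and TATAAA, read on the gene's own strand, in Gadd45b (chr10:80929971-80930090, plus strand) and Gadd45g (chr13:51846555-51846674, plus strand). TATAAA was in 3 of the 37 member promoters (8.11%), those of Gadd45b, Gadd45g and Eda2r, and in 8.32% of all promoters.
Gadd45a: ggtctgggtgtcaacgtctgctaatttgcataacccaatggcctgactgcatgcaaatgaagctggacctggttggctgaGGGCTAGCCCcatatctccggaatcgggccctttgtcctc
Gadd45b: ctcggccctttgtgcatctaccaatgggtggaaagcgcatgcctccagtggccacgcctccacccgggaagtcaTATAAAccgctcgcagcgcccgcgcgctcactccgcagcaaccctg
Gadd45g: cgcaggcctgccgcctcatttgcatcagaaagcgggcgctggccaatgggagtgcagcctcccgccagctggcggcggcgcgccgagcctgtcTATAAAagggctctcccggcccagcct

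Psrc1 (chr3:108383684-108383803, plus strand) and Btg2 (chr1:134079156-134079275, minus strand) are shown as members with large rises in both male virus comparisons. The 4 motifs searched were not in their windows, which says only that these letters are not there. These stretches also run from -120 to -1.
Psrc1: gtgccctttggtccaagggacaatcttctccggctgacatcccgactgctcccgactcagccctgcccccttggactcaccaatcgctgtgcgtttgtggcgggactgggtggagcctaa
Btg2: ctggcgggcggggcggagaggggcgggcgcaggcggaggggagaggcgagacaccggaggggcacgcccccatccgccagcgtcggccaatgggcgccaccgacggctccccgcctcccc

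In males given Adeno-Cux2, more than 1 in 2 of the members were higher than in males given Adeno-CMV. In males at day 3, 24 of the 34 members were higher (23.7% of all genes tested were) and 3 were lower (20.3% of all genes). In males at day 5, 19 were higher (13.9% of all genes) and 1 was lower (4.95%). In females at day 5, 11 were higher (12.8% of all genes) and 1 was lower (6.3%). The members' median ratio was 0.66 in males at day 3, 0.36 in males at day 5 and 0.11 in females, beside medians over all genes of -0.00, 0.01 and 0.00. Untreated males leaned the other way against females, with 1 member higher (4.92% of all genes), 8 lower (6.13%) and a median of -0.12. The day 5 counts rest on both arrays: with either one left out, fewer members and fewer of all genes were called higher. With any 1 array of the series left out, the members' median ran from 0.29 to 0.39 in males at day 5. In females it ran from 0.10 to 0.17. With the scanner software's own log ratios 8 members were higher in males and 4 in females at day 5. Of all 22225 genes, 1988 and 1645 were then higher.

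**Figure D1:**
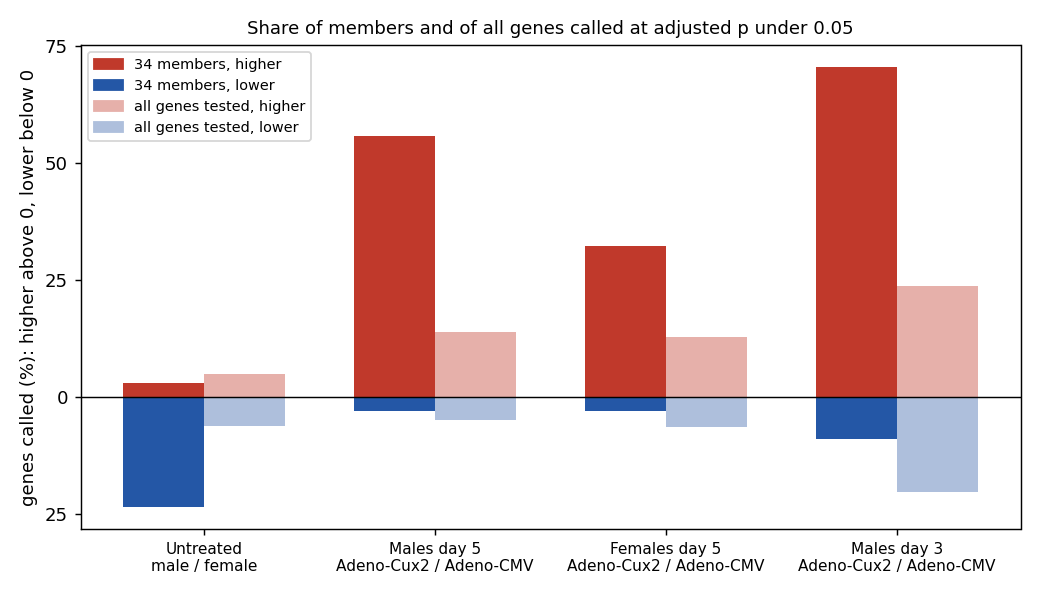
Percentage of genes called higher (above 0) and lower (below 0) in each comparison, for the 34 members (dark bars) and all 22225 genes tested (pale bars). The members called higher made up 55.9%, 32.4% and 70.6% in males at day 5, females at day 5 and males at day 3, and 2.94% in untreated mice.

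With the female arrays as labelled, 10 members were higher in all 3 virus comparisons: Mdm2, Cdkn1a, Gtse1, Psrc1, Plk2, Pmaip1, Bax, Apaf1, Trp53inp1 and Zmat3. With the female channels exchanged, 0 were. Another 8 were higher in males on both days and not called in females: Ccng1, Btg2, Gadd45b, Bcl2l11, Fas, Eda2r, Phlda3 and Polk. A further 6 were higher in males at day 3 and not called in males at day 5: Trp53, Ppm1d, Bbc3, Perp, Aen and Tnfrsf10b. Mdm4, Gadd45a, Gdf15, Rrm2b, Ddb2 and Xpc were called in no virus comparison. The shares of all genes with these patterns were not counted, so the counts only describe the members. A call in one comparison and none in another does not show that the responses differ; the tests of the differences follow further on. The 2 arrays of a comparison gave the same sign for 30 of 34 members in males at day 5, 26 in females, 31 in males at day 3 and 22 in untreated mice.

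**Figure D2:**
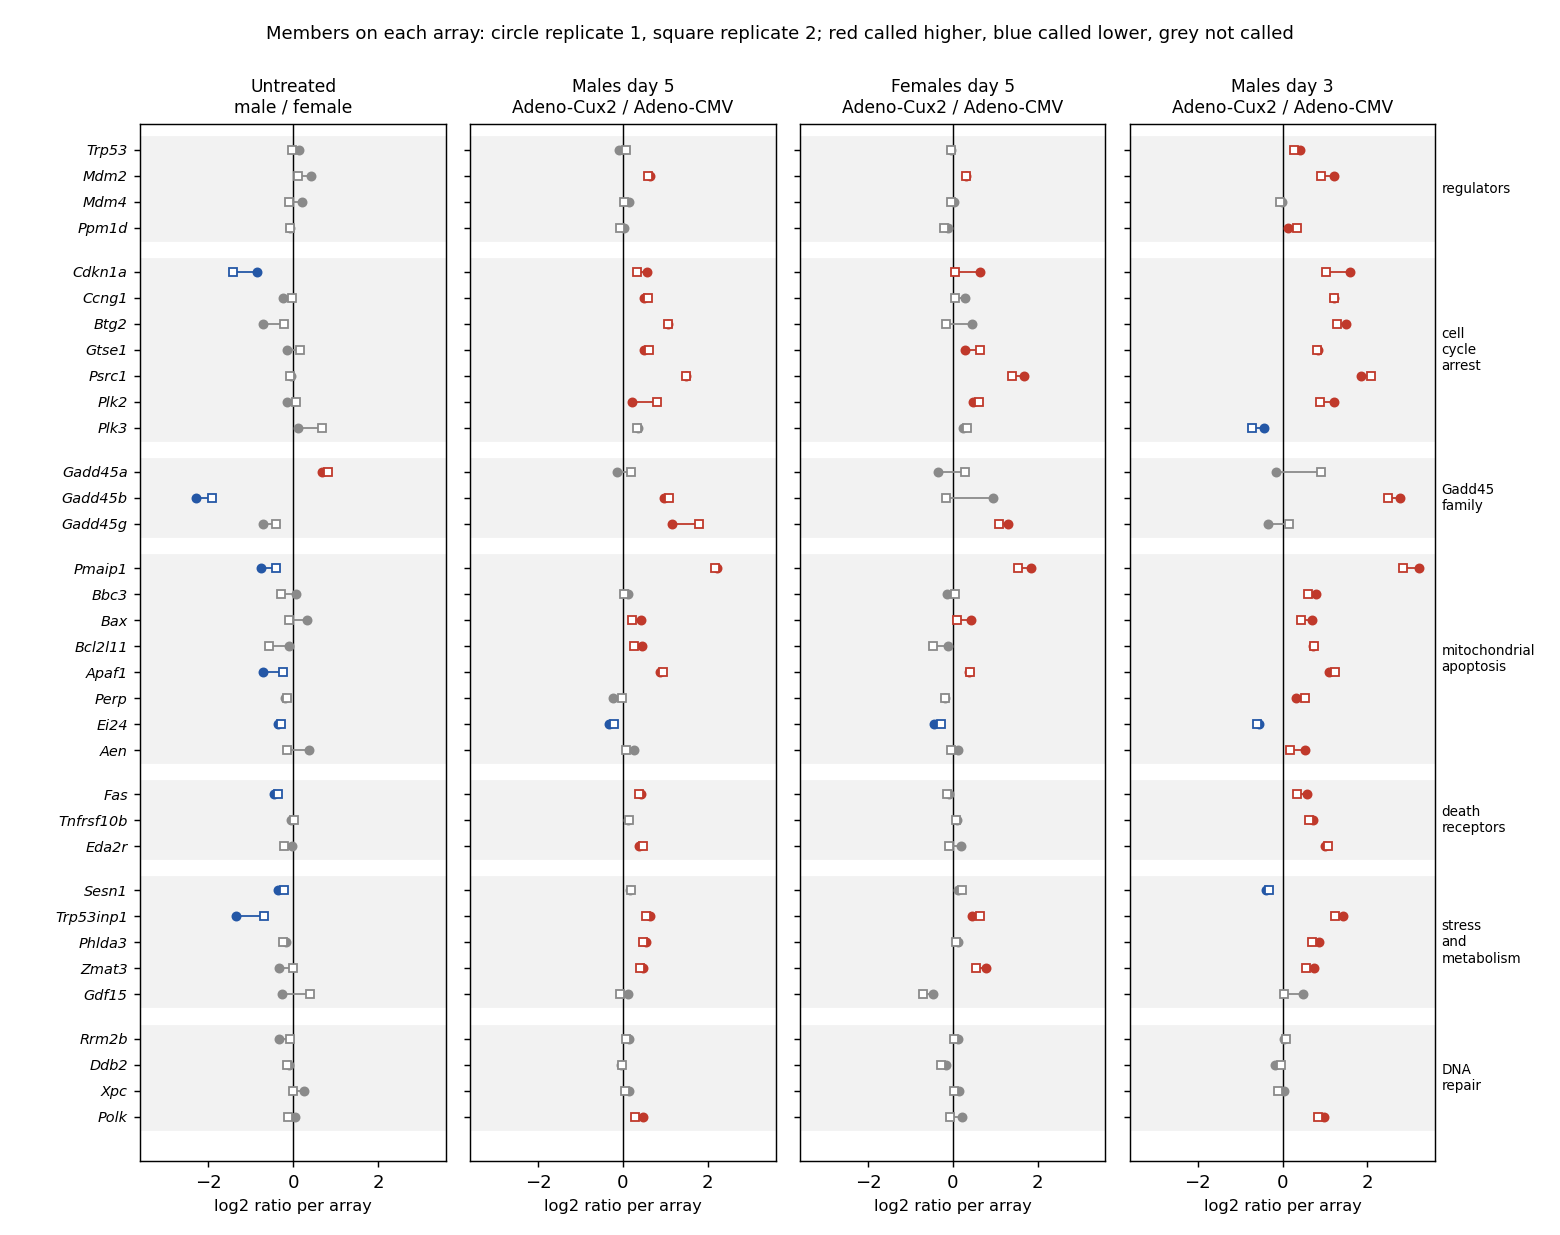
Log2 ratio of each member on each array (circle replicate 1, square replicate 2), by comparison in columns and by role in grey blocks; red is called higher, blue called lower and grey not called. Pmaip1 reached 3.22 and 2.84 in males at day 3, and Gadd45b -2.28 and -1.90 in untreated mice.

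Among the regulators, Mdm2 rose in each virus comparison and Trp53 in 1. Mdm2 read 0.63 and 0.58 on the 2 arrays in males at day 5, a fitted 0.61 ± 0.08 (1.52-fold, adjusted p = 0.00283). In females it read 0.32 and 0.31 (1.24-fold, adjusted p = 0.0383), a call kept in 7 of 21 alternative settings. In males at day 3 it read 1.21 and 0.90, or 1.05 ± 0.08 (2.07-fold, adjusted p = 0.000114). All 6 virus arrays lay above 0 for Mdm2, with the day 3 pair highest. Trp53 read 0.41 and 0.28 in males at day 3 (1.27-fold, adjusted p = 0.013) and between -0.10 and 0.08 on the day 5 arrays. Its dimmer probe, which lies further 5' on the gene, read -0.06 at day 3, so the Trp53 probes disagree. Ppm1d, a phosphatase that restrains p53 signalling, read 0.14 and 0.33 at day 3 (adjusted p = 0.0418), a call kept in 8 of 21 alternatives. Mdm4 was not called by its brightest probe, at -0.04 ± 0.07 at day 3, whereas 2 of its 4 dimmer probes read 0.64 and 0.76 there.

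Of the 7 members that act in cell cycle arrest and division, 6 rose in males on each day and 4 in females. Cdkn1a, the p21 inhibitor of cyclin-dependent kinases (probe at chr17:28828096-28828155 of mm8), read 0.56 and 0.34 in males at day 5 (1.37-fold, adjusted p = 0.0109). In females it read 0.64 and 0.06 (1.27-fold, adjusted p = 0.0297), so its female rise lay mainly on 1 array and was kept in 13 of 21 alternatives. In males at day 3 it read 1.58 and 1.02, or 1.30 ± 0.08 (2.46-fold, adjusted p = 6.17e-05). The day 3 arrays did not overlap those of day 5. Psrc1, a microtubule-binding protein of the spindle (probe at chr3:108516084-108516143 of mm8), read 1.48 on both arrays in males at day 5 (2.79-fold, adjusted p = 0.000141). In females it read 1.68 and 1.41 (2.91-fold, adjusted p = 0.000264), and in males at day 3 it read 1.86 and 2.08 (3.92-fold, adjusted p = 2.54e-05). Its 6 virus arrays ran from 1.41 to 2.08, and its 2 other probes read 0.93 and 1.31 in males at day 5.

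Ccng1, cyclin G1, read 0.49 and 0.60 in males at day 5 (1.46-fold, adjusted p = 0.00642) and 1.22 and 1.21 at day 3 (2.32-fold, adjusted p = 9.56e-05). Its female arrays read 0.29 and 0.04, without a call, whereas its other probe was at 0.43 there. Btg2, an antiproliferative factor that acts on mRNA decay, read 1.06 and 1.07 in males at day 5 (2.09-fold, adjusted p = 0.0057) and 1.51 and 1.28 at day 3 (2.63-fold, adjusted p = 0.000714). Its female arrays fell on either side of 0, at 0.45 and -0.15. Gtse1, a G2 and S phase protein that binds p53, rose 1.48-fold in males at day 5, 1.38-fold in females and 1.78-fold in males at day 3. Plk2, a stress-responsive polo-like kinase, rose 1.42-fold, 1.46-fold and 2.06-fold in the same order, with the male day 5 call kept in 11 of 21 alternatives. Its relative Plk3 was lower in males at day 3, with -0.44 and -0.71 (1.49-fold, adjusted p = 0.0122), and read 0.35 and 0.33 at day 5 without a call.

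The Gadd45 genes encode small stress sensors that bind PCNA and the p38 pathway kinase MTK1, and the 3 paralogs had 3 different profiles. Gadd45b (probe at chr10:80335274-80335333 of mm8) read 0.97 and 1.08 in males at day 5 (2.04-fold, adjusted p = 0.0222) and 2.76 and 2.50 at day 3 (6.19-fold, adjusted p = 0.00018). Its female arrays disagreed, at 0.95 and -0.16. Gadd45g (probe at chr13:51860860-51860919 of mm8) read 1.15 and 1.80 in males at day 5 (2.79-fold, adjusted p = 0.00067) and 1.31 and 1.1 in females (2.30-fold, adjusted p = 0.00202). In males at day 3 it read -0.33 and 0.15, on either side of 0. Gadd45a (probe at chr6:66964960-66965019 of mm8) was called in no virus comparison, and its day 3 arrays lay far apart, at -0.15 and 0.92. Of the 3 Gadd45 stretches printed above, that of Gadd45a held the decamer and those of Gadd45b and Gadd45g did not. A link between the decamer and the ratios was not tested.

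Of the 8 members grouped under mitochondrial apoptosis, 7 rose in males at day 3, 4 in males at day 5 and 3 in females. Of all genes, 23.7%, 13.9% and 12.8% rose in that order. Ei24 was lower each time. The grouping is loose, as Perp, Aen and Ei24 are not parts of the mitochondrial route itself. Pmaip1, the BH3-only protein Noxa, had the largest ratio of the 34 members in all 3 virus comparisons. It read 2.21 and 2.16 in males at day 5 (4.55-fold, adjusted p = 0.000122), 1.85 and 1.55 in females (3.25-fold, adjusted p = 0.000511) and 3.22 and 2.84 in males at day 3 (8.16-fold, adjusted p = 2.19e-05). All 21 alternatives kept each of these 3 calls. Apaf1, the scaffold of the apoptosome, read 0.87 and 0.95 in males at day 5 (1.88-fold, adjusted p = 0.000915), 0.38 and 0.40 in females (1.31-fold, adjusted p = 0.0275) and 1.1 and 1.24 in males at day 3 (2.25-fold, adjusted p = 0.000125). Its dimmest probe, far 5' of the others, read -0.01 in males at day 5 and 0.17 at day 3.

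Bax, which opens the outer mitochondrial membrane, rose 1.25-fold in males at day 5, 1.20-fold in females (kept in 8 of 21 alternatives) and 1.49-fold in males at day 3. Bbc3, the BH3-only protein Puma, read 0.79 and 0.61 in males at day 3 (1.62-fold, adjusted p = 0.00142) and 0.13 and 0.02 at day 5. Bcl2l11, the BH3-only protein Bim, rose 1.28-fold in males at day 5 (adjusted p = 0.042, kept in 10 of 21 alternatives) and 1.65-fold at day 3 (adjusted p = 0.00099), where its dimmest probe read -0.17. Perp, a membrane protein, and Aen, a nuclease, rose 1.35-fold and 1.28-fold in males at day 3. Ei24, an endoplasmic reticulum protein first described as a p53-induced gene, fell by 0.27 in males at day 5, 0.36 in females and 0.58 in males at day 3, and by 0.32 in untreated males against females.

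The death receptors were called higher in males only, a difference from females that did not itself pass the test. Eda2r, a receptor for ectodysplasin, read 0.37 and 0.46 in males at day 5 (1.34-fold, adjusted p = 0.0166) and 1.01 and 1.07 at day 3 (2.05-fold, adjusted p = 0.000153). Its female arrays read 0.20 and -0.09. Fas read 0.44 and 0.38 in males at day 5 (1.33-fold, adjusted p = 0.0104) and 0.58 and 0.34 at day 3 (1.38-fold, adjusted p = 0.00265). A dimmer Fas probe read 0.02 and -0.21 on the 2 days, so the Fas result rests on 1 probe. Tnfrsf10b, the mouse TRAIL receptor, read 0.71 and 0.62 in males at day 3 (1.59-fold, adjusted p = 0.000262) and 0.12 and 0.14 at day 5.

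Among stress and metabolic targets, Trp53inp1 and Zmat3 rose in all 3 virus comparisons. Trp53inp1, a p53 cofactor also linked to autophagy, read 0.64 and 0.55 in males at day 5 (1.51-fold, adjusted p = 0.0281), 0.46 and 0.64 in females (1.47-fold, adjusted p = 0.0363) and 1.42 and 1.24 in males at day 3 (2.51-fold, adjusted p = 0.000416). Zmat3, an RNA-binding zinc finger protein, rose 1.35-fold, 1.59-fold and 1.56-fold in the same order. Phlda3, an inhibitor of Akt, rose 1.42-fold in males at day 5 and 1.71-fold at day 3. Sesn1, a sestrin that restrains mTORC1, went down in males at day 3, with -0.39 and -0.31 (1.28-fold lower, adjusted p = 0.00376), and read 0.16 and 0.18 at day 5. Gdf15, a secreted stress hormone, passed no test and read -0.47 and -0.71 in females (adjusted p = 0.063).

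Of the 4 members that act on DNA, Polk passed the test. This translesion polymerase read 0.47 and 0.28 in males at day 5 (1.30-fold, adjusted p = 0.00698) and 0.98 and 0.83 at day 3 (1.87-fold, adjusted p = 7.73e-05). Rrm2b, the p53-induced subunit of ribonucleotide reductase, and Ddb2 and Xpc, damage sensors of nucleotide excision repair, had fitted ratios between -0.22 and 0.11 in the 3 virus comparisons. The lowest of their adjusted p there was 0.0718, for Ddb2 in females.

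In untreated mice the sexes differed in 9 members, 8 of them lower in males. Gadd45b read -2.28 and -1.90 (4.26-fold lower, adjusted p = 0.00289), the largest sex difference of the 34. Cdkn1a read -0.86 and -1.41 (2.20-fold lower, adjusted p = 0.000623) and Trp53inp1 -1.34 and -0.69 (2.02-fold lower, adjusted p = 0.00747). These 3 were high in females on both arrays. Pmaip1, Apaf1, Fas, Ei24 and Sesn1 were lower in males by 1.48-fold, 1.39-fold, 1.32-fold, 1.25-fold and 1.22-fold. The Sesn1 call was kept in 5 of 21 alternatives, and its 2 other probes read -0.11 and 0.15. Gadd45a alone was higher in males, at 0.68 and 0.83 (1.69-fold, adjusted p = 0.0244). Of the 8 lower in males, 6 were higher with Adeno-Cux2 in at least 1 virus comparison: Cdkn1a, Gadd45b, Pmaip1, Apaf1, Fas and Trp53inp1. Of all 34 members, 25 were higher in at least 1, which is a similar share. The untreated counts are thin: without untreated replicate 1, fewer members and fewer of all genes were called. Without either male day 5 array, 3 members were lower, as were 643 of all 22225 genes.

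The response of males was set against itself on the 2 days. Of the 34 members, 13 differed between day 5 and day 3 (12.9% of all genes did), 10 with a lower ratio at day 5 (4.82% of all genes) and 3 with a higher one (8.1%). The ratio at day 5 was lower for Gadd45b, Cdkn1a, Pmaip1, Ccng1, Bbc3, Eda2r, Perp, Tnfrsf10b, Polk and Mdm2, by 0.45 to 1.60. It was higher for Gadd45g (1.57 ± 0.19, adjusted p = 0.00611), Plk3 (0.92 ± 0.19, adjusted p = 0.0252) and Sesn1 (0.52 ± 0.09, adjusted p = 0.0133). The days lay on different slides. With an array of either day left out, few or no members passed, and fewer of all genes did too. With the scanner's log ratios 1 member differed. Of all 22225 genes, 447 then had a higher ratio at day 5 and 202 a lower one.

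**Figure D3:**
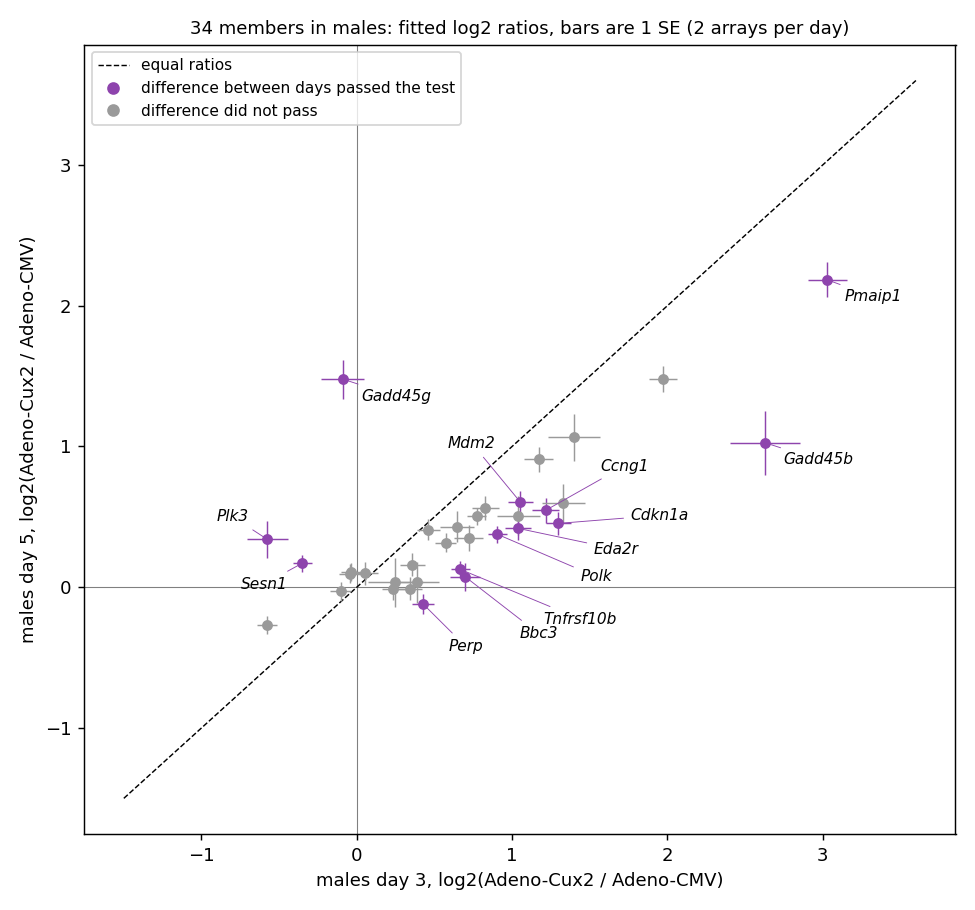
Fitted log2 ratio of Adeno-Cux2 over Adeno-CMV in males at day 5 (vertical) against day 3 (horizontal) for the 34 members, with bars of 1 standard error and a dashed line of equal ratios; purple marks members whose difference passed the test. Gadd45g (1.48 at day 5, -0.09 at day 3) lies above the line, and Gadd45b (1.03 and 2.63) and Pmaip1 (2.18 and 3.03) lie below it.

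The channel levels, log2 signals that can be compared only within a probe, give the pools behind the difference between the days. Gadd45b stood at 11.11 and 11.25 in the Adeno-Cux2 males of day 5 and at 11.41 and 11.40 in those of day 3, and in the Adeno-CMV males at 10.14 and 10.16 on day 5 and at 8.65 and 8.90 on day 3. Gadd45g stood in the Adeno-CMV males at 12.12 and 12.55 on day 5 and at 14.29 and 13.44 on day 3, while its Adeno-Cux2 pools stood at 13.27 and 14.35 and at 13.95 and 13.59. Only the Adeno-Cux2 pools of Gadd45g overlapped between the days among these. Cdkn1a stood at 12.50 and 12.26 on day 5 and 13.64 and 13.66 on day 3 with Adeno-Cux2, and at 11.94 and 11.92 and at 12.05 and 12.65 with Adeno-CMV. Pmaip1 stood at 10.703 and 10.633 on day 5 and 11.73 and 11.46 on day 3 with Adeno-Cux2, and at 8.49 and 8.47 and at 8.51 and 8.62 with Adeno-CMV. For these 2 genes neither kind of pool overlapped between the days. The Adeno-CMV pools of Pmaip1 nearly met, at 8.493 on day 5 and 8.510 on day 3. How many of all genes have no overlap was not counted, so it marks nothing particular to the genes named. The second Adeno-CMV value given for day 3 is from the pool that was high in Xist. All these levels come from different slides and were not tested.

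Between females and males at day 5, limma called 0 of the 34 members different, in either direction (0.207% of all genes were called, 0.036% with a higher ratio in females and 0.171% with a lower one), with 11 at an unadjusted p under 0.05. The lowest adjusted p was 0.124, for Fas, at -0.52 ± 0.10. The fitted differences ran from -0.92 ± 0.24 for Btg2 to 0.24 ± 0.15 for Zmat3, and 30 of 34 lay below 0. Over all genes, 46.6% of the differences lay above 0. These comparisons also lay on different slides. With the female channels exchanged, 20 members would differ, with differences from -3.88 to 0.63.

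Several members were already far above untreated liver in mice given the control virus. On the slide that held both, 9 members were at least 2-fold higher in the Adeno-CMV males of day 5 than in untreated males with no overlap of the 2 pools of each (2.34% of all genes met that rule), and 2 were at least 2-fold lower (1.69%). Cdkn1a stood at 7.96 and 8.39 in untreated males, 11.94 and 11.92 with Adeno-CMV and 12.50 and 12.26 with Adeno-Cux2, so the control virus pools were 13.5-fold above untreated ones. Phlda3 was 8.05-fold, Gtse1 7.94-fold, Eda2r 6.87-fold and Psrc1 6.26-fold higher with Adeno-CMV. Psrc1 was near background in untreated males, at 6.24 and 6.29, and over 8 settings of the levels its difference ran from 1.16 to 2.85 on the log2 scale. Over the same settings the differences ran from 2.86 to 4.16 for Cdkn1a, 2.00 to 3.31 for Phlda3, 1.84 to 3.22 for Gtse1 and 1.41 to 2.90 for Eda2r. Gdf15, not called for Adeno-Cux2 over Adeno-CMV, was 3.67-fold above untreated males, and Gadd45b 3.15-fold, Ccng1 2.05-fold and Zmat3 2.05-fold.

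Pmaip1 differed from these: it stood at 7.56 and 8.00 in untreated males, 8.49 and 8.47 with Adeno-CMV and 10.703 and 10.633 with Adeno-Cux2, so most of its distance from untreated liver lay between the 2 viruses. Gadd45g was 5.36-fold and Plk3 2.15-fold lower with Adeno-CMV than in untreated males. Trp53 was lower by 0.63 on the log2 scale. With Adeno-Cux2 at day 5, 16 members were at least 2-fold above untreated males (5.63% of all genes) and 0 below (2.46%). In females, across slides, 11 members were at least 2-fold higher with Adeno-CMV (3.88% of all genes) and 2 lower (4.36%). In males at day 3, also across slides, 6 were higher (3.06%) and 0 lower (2.87%). No test was run on these levels, and the virus and its delivery cannot be told apart in them. With no normalization of level between arrays 17 members were higher and 1 lower. The median of all genes was then 0.15 in place of -0.04, and relative to it 14 were higher.

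**Figure D4:**
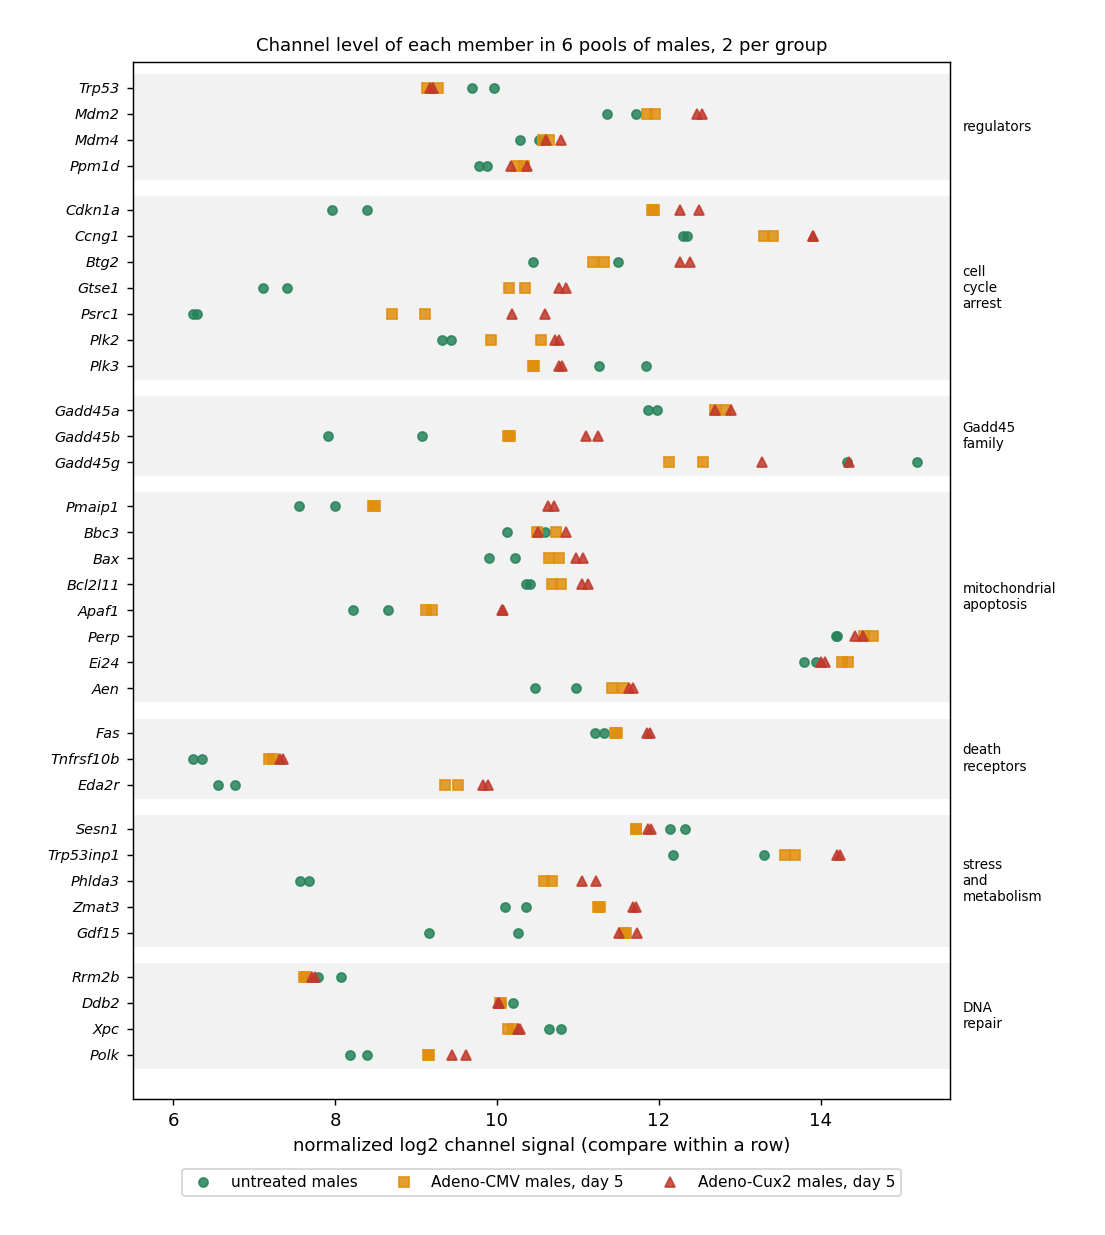
Normalized log2 channel signal of each member in 6 pools of males on 1 slide: untreated (green circles), Adeno-CMV at day 5 (orange squares) and Adeno-Cux2 at day 5 (red triangles). Points compare only within a row; Cdkn1a runs from 7.96 in an untreated pool to 12.50 in an Adeno-Cux2 pool.

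Other genes of the pathway were taken from lists written with earlier results of these data known. Of 44 further p53 targets, 20 rose and 1 fell in males at day 5, 11 rose and 2 fell in females, and 29 rose and 4 fell in males at day 3, with medians of 0.25, 0.16 and 0.51. The shares that rose were 45.5%, 25% and 65.9%, beside 13.9%, 12.8% and 23.7% of all genes. Among the risers at day 3 were the matrix protein thrombospondin 1, Thbs1 (4.03-fold), and the adenylate kinase Ak1 (3.05-fold). Thbs1 was also higher in males at day 5, by 2.25-fold, as was Tnfaip8 by 2.45-fold. Gls2, a liver glutaminase, fell the most at day 3, 3.18-fold. In untreated males this list had 3 genes higher (4.92% of all genes were) and 9 lower (6.13%), with Ddit4, an inhibitor of mTORC1, 3.96-fold lower.

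Of 69 genes of DNA repair and damage signalling, 2 rose and 3 fell in males at day 5, 2 rose and 8 fell in females, and 22 rose and 10 fell in males at day 3 (31.9% and 14.5%, beside 23.7% and 20.3% of all genes). Ercc1, Brca1 and Topbp1 rose most at day 3, by 1.87-fold, 1.84-fold and 1.79-fold. Prkdc, the gene mutated in scid, was lower with Adeno-Cux2 by 1.27-fold in males at day 5, 1.28-fold in females and 1.49-fold in males at day 3. Of 27 genes that control p53, 2 rose and 1 fell in males at day 5, 2 rose and 2 fell in females, and 6 rose and 5 fell at day 3 (22.2% and 18.5%, near the shares over all genes). The kinase Chek2 was among the risers in males, at 1.28-fold at day 5 and 1.29-fold at day 3. Of 35 genes of the apoptosis machinery, 8 rose and 2 fell in males at day 5, 5 rose and 3 fell in females, and 15 rose and 9 fell at day 3 (42.9% and 25.7%). The survival gene Bcl2 rose 1.75-fold, 1.56-fold and 2.01-fold in that order. For these lists, the day 5 shares over all genes were 13.9% higher and 4.95% lower in males. In females they were 12.8% and 6.3%.

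Genes of dividing cells and markers of other cell types also differed between the pools. Of 38 genes of S and M phase, 14 were higher and 2 lower in males at day 5, 20 higher and 4 lower in females, and 31 higher and 0 lower in males at day 3. Of all genes, 13.9%, 12.8% and 23.7% were higher and 4.95%, 6.3% and 20.3% lower in the same order. Bub1, a mitotic checkpoint kinase, rose 1.54-fold, 1.79-fold and 2.00-fold, while the G1 cyclins Ccne1 and Ccne2 fell at day 5 in both sexes. The summed signal of the list was 42307 to 53692 in the untreated pools, 209225 to 223058 with Adeno-CMV and 241206 to 250205 with Adeno-Cux2 in males at day 5, and 313232 to 321052 and 430159 to 462253 in males at day 3. Of these 38 genes, 36 were at least 2-fold above untreated males in the Adeno-CMV males of day 5, with no overlap of pools (2.34% of all genes met that rule).

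Of 13 neutrophil markers, 11 were higher in each virus comparison, and their summed signal was 10546 to 13504 with Adeno-CMV and 73909 to 79840 with Adeno-Cux2 in males at day 5, 42981 to 46363 and 114135 to 133045 in females, and 14906 to 16240 and 56418 to 65995 in males at day 3. Of 20 macrophage markers, 18, 15 and 11 were higher in males at day 5, females and males at day 3, with sums of 80596 to 92888 and 238923 to 276789 for the male day 5 pools. Interferon-stimulated genes numbered 31, of which 26, 21 and 28 were higher in the same order. Of 21 T and natural killer cell markers 13, 9 and 15 were higher, and of 15 stellate and fibroblast markers 11, 12 and 9. Of 19 hepatocyte markers, 6, 6 and 2 were higher and 2, 3 and 12 lower. The shares over all genes were 13.9%, 12.8% and 23.7% higher and 4.95%, 6.3% and 20.3% lower. Counts lower are given here for the hepatocyte and red cell lists only, so the other lists may hold markers that fell. Every gene of these lists was above background in at least 1 pool of each comparison. Of 10 red cell markers, 5 were higher and 1 lower in males at day 5, 6 were higher in females and 7 were lower in males at day 3, where their sum was 138777 to 157690 with Adeno-CMV and 15774 to 20150 with Adeno-Cux2. Of 11 cholangiocyte markers 4, 6 and 5 were higher, and their sum at day 3 was 23714 to 24088 with Adeno-CMV and 101822 to 111099 with Adeno-Cux2. Single pools stood apart for exocrine pancreas, at 331919 in 1 female Adeno-Cux2 pool and 5194 in the other, and for skeletal muscle, at 25177 in 1 female Adeno-CMV pool and 5319 in the other. Male pools did so too: exocrine pancreas stood at 48670 and 5684 in untreated males and at 25583 and 3828 in Adeno-Cux2 males of day 3. Skeletal muscle stood at 16519 and 2200 in Adeno-Cux2 males of day 5. The part of these cell types and pools in the results for the p53 targets was not tested.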

How the data were processed

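Liver RNA pools were measured on 8 two-colour arrays (16 pools), processed with Agilent Feature Extraction 9.5.3.1 or 10.7.1.1 per the file headers; probe coordinates are those of mm8. The deposited scanner files hold median spot and background intensity and, per the file headers, 0 or 1 spot flags (other values), and a log10 ratio of red over green. The deposited series matrix holds the same log10 ratio with its sign turned on replicate 2.

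Intensities were background-corrected (normexp, offset 50) and loess-normalized in limma 3.58.1 (R 4.3.3), with control and outlier spots at weight 0. One log2 linear model of the deposited intensities covered all 8 arrays, with 4 comparison terms and a dye term; the dye order equals the replicate number, so that term is also the replicate block. eBayes had 3 residual degrees of freedom. Tests were 2-sided. Of 41174 probes, 33335 passed the filter and 22225 genes were tested, each by its brightest probe; 7548 had several. Same-numbered arrays did not all deviate together (correlations from -0.09 to 0.30), so the numbers are not shown to pair mice. Channel levels used Aquantile and no test. Data were simulated for the male day 5 comparison over 22225 genes, with 200 of them changed. Of those, 19.4% of 1.5-fold, 85.1% of 2-fold and 100% of 4-fold changes were recovered, with 15 false calls among unchanged genes. The real data had 4188 genes called in males at day 5, so the simulated rates need not hold there. The number of arrays limits the precision.

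The members and lists were chosen with earlier results of these data known. All members are named; from each other pathway list, the named genes come from the 3 largest called rises and falls per comparison, of which 1 gene is not reported here. Alternatives covered background correction, normalization, filters, probe choice, samples and covariates, and each array left out; those for channel levels, and the exchange of the female channels, were chosen after seeing the data.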

Additional observations from a re-analysis of the deposited data

Results flagged for a closer look

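The ratio of Adeno-Cux2 over Adeno-CMV differed between males at day 5 and males at day 3 for 13 members, tested as a difference of 2 limma coefficients with Benjamini-Hochberg adjustment over all genes. Day 5 minus day 3 was -0.45 for Mdm2 (adjusted p = 0.0482), -0.85 for Cdkn1a (0.00824), -0.67 for Ccng1 (0.0188) and -1.60 for Gadd45b (0.0231). It was -0.84 for Pmaip1 (adjusted p = 0.0278), -0.62 for Bbc3 (0.0318), -0.55 for Perp (0.0172) and -0.54 for Tnfrsf10b (0.013). For Eda2r it was -0.62 (adjusted p = 0.0216) and for Polk -0.53 (0.0132). It was above 0 for Plk3 at 0.92 (adjusted p = 0.0252), Gadd45g at 1.57 (0.00611) and Sesn1 at 0.52 (0.0133). The days and the slides cannot be told apart. Of these 13 calls, 0 were kept in all 19 alternatives that gave a value and Gadd45g was kept in the most, 15.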

How the results depend on the processing

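Calls at day 3 were the steadiest: 19 of 27 were kept in all 21 alternatives, against 4 of 20 in males at day 5 (Apaf1, Gadd45g, Pmaip1 and Psrc1), 3 of 12 in females (Gadd45g, Pmaip1 and Psrc1) and 0 of 9 in untreated mice. For single members, 3764 alternative values kept direction and side of the threshold, 338 lost the call, 43 gained one and 3 reversed: Pmaip1 at day 5 minus day 3 was 0.18 with scale normalization (adjusted p = 0.569), Mdm4 at day 3 was 0.31 over all its probes (0.00797), and Gdf15 in untreated mice was -0.41 without untreated replicate 2 (0.0489). With no background subtraction, 0 members were higher in untreated males and the medians were -0.077 untreated, 0.29 in males at day 5 and 0.55 at day 3. An offset of 16 left 0 lower in males at day 5. With the scanner's log ratios, and the series matrix alike, 0 were higher and 2 lower in untreated males, 8 higher and 0 lower in males at day 5 (median 0.30), 4 higher in females, and 1 differed between days. Median centring gave 5 lower in untreated males (median -0.079), 7 higher and 2 lower in females, and a day 3 median of 0.81. Scale normalization gave medians of -0.15 untreated and 0.50 at day 3, 1 member different between the sexes at day 5 and 2 between days. The mean of all probes gave 5 lower in untreated males and medians of -0.082 untreated, 0.28 at day 5 and 0.51 at day 3. Each comparison's own 2 arrays gave 0 higher and 1 lower in untreated males and 7 higher in females; arrays of the same slide alone gave 0 lower in males at day 5 and 2 lower in females. With no replicate block, 0 members were higher in untreated males and 2 lower in females, and 17 of 20 calls in males at day 5, 9 of 12 in females, 26 of 27 at day 3 and 10 of 13 between days were kept. With any 1 array left out, the counts higher and lower ran from 0 to 1 and 1 to 9 in untreated males, 4 to 19 and 0 to 1 in males at day 5, 3 to 11 and 0 to 2 in females, and 20 to 26 and 1 to 3 at day 3. Medians then ran from -0.12 to -0.074, 0.29 to 0.39, 0.10 to 0.17 and 0.63 to 0.66, and the members that differed from 0 to 0 between the sexes and 0 to 14 between days. Among the channel levels of Adeno-CMV over untreated males, members at least 2-fold higher and lower numbered 17 and 1 without normalization between arrays, 1 was lower without background subtraction, and with an array left out 8 to 10 were higher and 1 to 2 lower. With the female channels exchanged, 1 member was higher and 11 lower in females (median -0.11), and 20 differed from males at day 5. The cause of these shifts was not tested. At 2 arrays per comparison, changes near 1.5-fold were often missed in the simulated data, in which 200 genes were changed.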
